A study of Mus musculus with 24 samples.

Results

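The genes described here are 10 classic heat shock response genes, Hspa1a, Hspa1b, Hspa8, Dnajb1, Hsph1, Bag3, Hsp90aa1, Hspd1, Hspe1 and Hspb1, taken by gene symbol from 46318 gene IDs counted by RNA sequencing in mouse mammary tumours. All 10 were found, and all 10 passed the expression filter that left 15820 genes for testing. The tumours came from MMTV-PyMT mice, in which the mouse mammary tumour virus promoter drives the polyoma middle T antigen in mammary epithelium. All 24 libraries share this transgene. The labels give 12 tumours as SHP KO, from a colony that is NR0B2-/- and PyMT+, and 12 as wild type, from a colony that is NR0B2+/+ and PyMT+. SHP is the protein of Nr0b2, a nuclear receptor without a DNA-binding domain that represses other nuclear receptors. Tumours were taken at 2000 mm3, frozen and homogenised whole, and age at collection and treatment were not given in the sources used here. Whether each tumour is from a separate mouse is not stated either, so the error in every test is the spread of these 12 and 12 tumours only.

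Heat shock proteins are chaperones that bind unfolded proteins, keep them soluble and help them fold. When unfolded proteins build up, heat shock factor 1 (Hsf1) forms trimers and binds heat shock elements, which are short promoter stretches built of the unit GAA in alternating orientation. In tumours these chaperones are known for keeping mutant and overproduced signalling proteins in shape.

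Library totals ran from 18789250 to 38022182 counted reads. Nr0b2 itself went against the labels, with reads in 12 of 12 libraries labelled KO (mean 0.766 CPM, the count scaled to a common library total, or 0.420 without KO 12) and 1 read in all those labelled WT (0.00323 CPM), so KO and WT here name labels and not a measured loss. The tissue label was met by luminal epithelial markers: all 8 had reads in every library, and their summed level was 4061 to 9893 CPM in KO and 4302 to 7785 CPM in WT. Library KO 12 stood apart. Its 1022 tested genes with under 1000 exonic bases lay a median 0.92 above the KO mean on the log2 scale, against -0.26 to 0.15 in the other 23 libraries.

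The members were first compared by promoter sequence. RefSeq promoter windows of 300 bases, from 250 before to 50 after the start on GRCm38.p6, were in the table used for 8 of the 10 members, Hsp90aa1 and Hspa8 being the others. A run of 3 alternating units with 2 bases between them (GAANNTTCNNGAA or TTCNNGAANNTTC, both strands) stood in the windows of 3 of these 8 genes, Hspe1, Hspd1 and Hsph1, which is 37.5%, against 0.662% of the 27025 genes in the table (179 genes). The shorter run of 2 units (GAANNTTC or TTCNNGAA, which the longer run contains) stood in 7 of 8 (87.5%), all but Dnajb1, against 16.97% of all genes (4587). These counts are not of independent sequences. Hspe1 and Hspd1 share the same stretch, and the Hspa1a and Hspa1b windows are nearly identical. The members were also chosen as heat shock response genes, so the shares are a description and no test. A match describes the letters in the window and is not a measured binding site. Of the 250-base stretches before the start, 4 are shown, because they hold the near-identical HSP70 pair, the longest match of the set and the shortest members, with matches to either run in capitals.
Hspa1a: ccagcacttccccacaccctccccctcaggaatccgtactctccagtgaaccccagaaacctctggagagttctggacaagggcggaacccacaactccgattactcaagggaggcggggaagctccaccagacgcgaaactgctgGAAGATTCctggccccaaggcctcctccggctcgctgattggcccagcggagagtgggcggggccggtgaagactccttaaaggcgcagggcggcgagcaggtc
Hspa1b: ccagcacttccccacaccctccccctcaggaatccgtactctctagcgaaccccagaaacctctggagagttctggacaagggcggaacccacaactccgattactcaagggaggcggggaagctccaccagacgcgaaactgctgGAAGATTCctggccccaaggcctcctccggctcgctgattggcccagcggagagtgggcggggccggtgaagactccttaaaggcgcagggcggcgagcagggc
Hspe1: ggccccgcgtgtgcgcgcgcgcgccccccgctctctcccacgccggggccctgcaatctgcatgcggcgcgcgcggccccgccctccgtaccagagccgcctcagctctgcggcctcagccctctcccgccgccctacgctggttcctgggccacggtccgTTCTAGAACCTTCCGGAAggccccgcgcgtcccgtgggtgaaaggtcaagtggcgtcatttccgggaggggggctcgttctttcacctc
Hspb1: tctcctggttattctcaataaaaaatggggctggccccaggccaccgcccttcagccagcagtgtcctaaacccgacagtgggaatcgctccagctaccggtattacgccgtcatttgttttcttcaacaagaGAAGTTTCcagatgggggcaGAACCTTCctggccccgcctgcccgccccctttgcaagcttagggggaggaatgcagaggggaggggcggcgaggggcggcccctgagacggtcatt

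The Hspa1a stretch is chr17:34972157-34972406 (minus strand), that of Hspa1b chr17:34959239-34959488 (minus strand), that of Hspe1 chr1:55087898-55088147 (plus strand) and that of Hspb1 chr5:135887669-135887918 (plus strand). Hspa1a and Hspa1b, the strongly inducible HSP70 pair, carry the same 8 bases GAAGATTC at 104 to 97 bases before the start, and their whole windows are identical at 296 of 300 bases (98.7%). Hspe1 has the longest run of the set, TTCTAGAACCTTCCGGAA, at 89 to 72 bases before its start. Read from the other strand it is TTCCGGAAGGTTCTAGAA, at 127 to 144 bases before the second of the Hspd1 starts, since both genes of this mitochondrial chaperonin pair lie head to head and those windows share 285 bases. Hspb1 has a pair of separate short matches, GAAGTTTC and GAACCTTC. In the first Hsph1 window TTCTCGAA lies 33 to 26 bases before the start and the 3-unit run TTCTGGAAAGTTC 37 to 49 bases after it, and in Bag3 the only match, GAAGTTTC, lies 43 to 50 bases after the start. Beyond the members, 2 of 89 genes of wider chaperone and stress lists had the 3-unit run, the HSP40 gene Dnajb6 and the HSP90 cochaperone gene Chordc1.

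Levels per length spanned a wide range, from constitutive Hspa8 down to inducible Hspa1a. On the RPKM scale (TMM-scaled CPM per 1000 exonic bases, where TMM is a scaling of library totals), Hspa8, the constitutive cytosolic HSP70, averaged 697 ± 126 (SD over all 24 libraries), above every other member in 24 of 24. Hsp90aa1 (151 ± 30.2), Hspd1 (118 ± 29.2), Hspb1 (112 ± 37.3) and Hspe1 (99.1 ± 45.4) formed a middle range. Over the 23 libraries other than KO 12, Hspb1 averaged 105 ± 18.2 RPKM and Hspe1 90.3 ± 14.4. Inducible Hspa1b averaged 42.6 ± 12.1 RPKM, Bag3 21.3 ± 3.52, Dnajb1 20.05 ± 4.51, Hsph1 14.1 ± 4.57 and Hspa1a 7.75 ± 2.45. Neighbours in this order that changed places often were Hspd1 and Hspb1, with Hspd1 higher in 15 of 24 libraries, Hspb1 and Hspe1, with Hspb1 higher in 19, and Bag3 and Dnajb1, with Bag3 higher in 15. Hspe1 lay above Hspa1b, and Hspa1b above Bag3, in all 24. The counting left out reads that map to several places, and Hspa1a and Hspa1b share sequence. Their levels may thus be understated, and the last place of Hspa1a is uncertain.

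**Figure D1:**
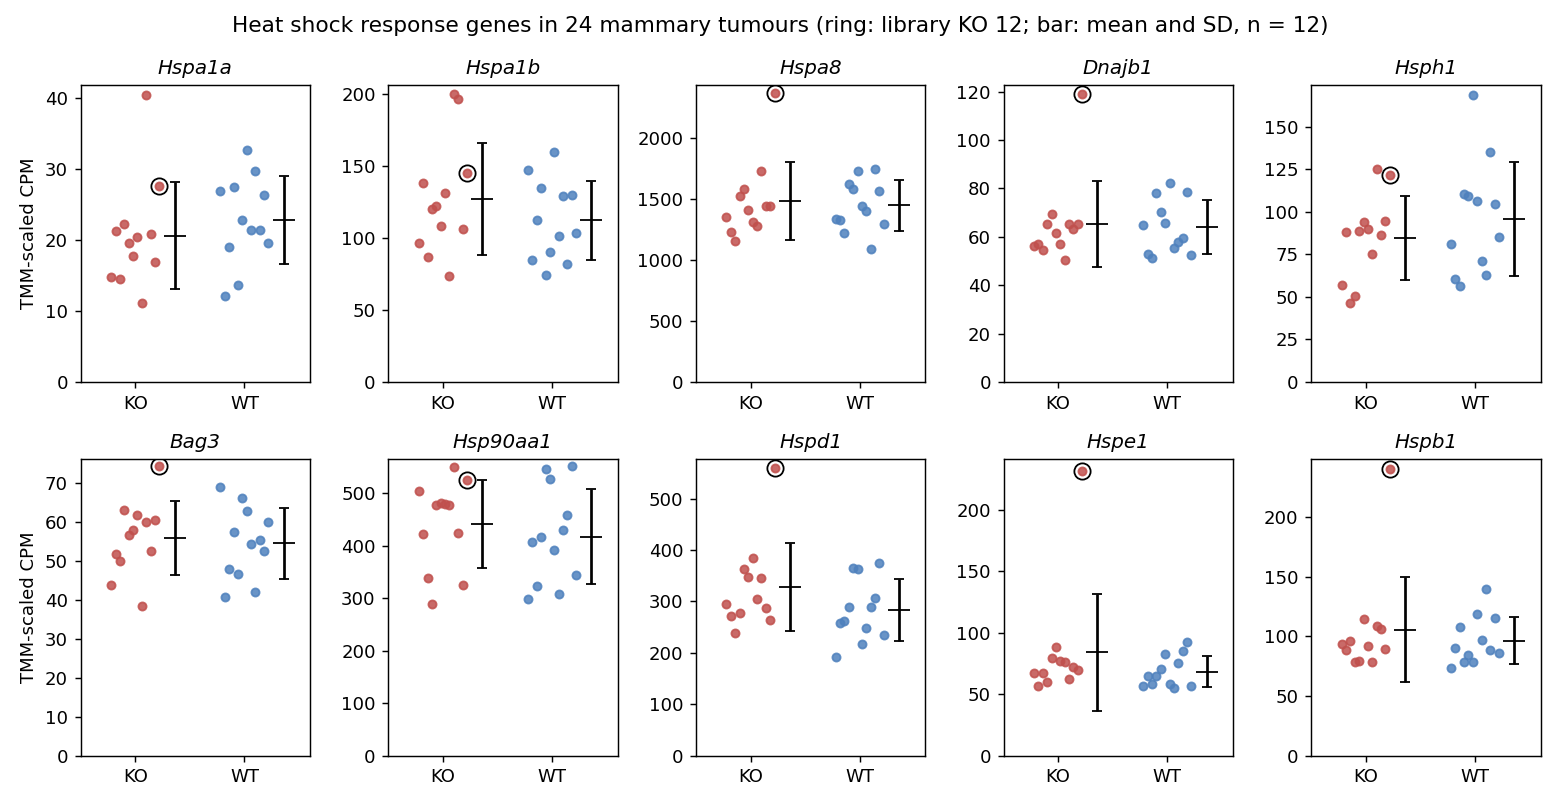
Level of each of the 10 genes in TMM-scaled CPM (y axis, from 0) in every library labelled KO (red) or WT (blue), with the mean and SD of 12 beside each group. The groups overlap for all 10 genes, and the ringed library KO 12 is the highest of KO for Hspa8, Dnajb1, Bag3, Hspd1, Hspe1 and Hspb1.

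By the series design, the labelled groups were compared gene by gene. None of the 10 heat shock response genes passed the test (edgeR quasi-likelihood, two-sided, Benjamini-Hochberg adjusted p under 0.05 over all genes tested), where 50 of 15820 genes or 0.316% did. At an unadjusted p under 0.05 the members' count was also 0, against 18.9% of all genes, and at an adjusted p under 0.1 it was 0 against 1.46%. It was likewise 0 of 10 past the adjusted threshold with DESeq2 and with limma voom. The members' log2 changes, KO over WT, had a median of 0.06 (8 above 0, 2 below), beside 0.01 over all genes. Without KO 12 their median was -0.03 (4 above 0, 6 below). In bulk tissue, fewer cells of a type and less RNA per cell cannot be told apart.

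The HSP70 chaperones come first. Hspa1a (chromosome 17, 35188335 to 35191132, GRCm39, a single exon) ran from 11.1 through a median of 20.02 to 40.4 CPM in KO and from 12.1 through 22.1 to 32.8 in WT. The ranges overlapped throughout, with KO 8 and WT 14 lowest and KO 9 and WT 19 highest. Its mean was 20.6 ± 7.55 CPM (SD, n = 12) against 22.8 ± 6.21 (n = 12), a log2 change of -0.14 ± 0.18 (SE, edgeR adjusted p = 0.675). Hspa1b, 10120 bases away, ran from 73.9 through 121 to 200.04 CPM in KO and from 74.1 through 108 to 159.8 in WT. KO 9 and KO 10 were the highest KO libraries, WT 19 was the highest WT one, and KO 8 was again the lowest of KO. The log2 change was 0.18 ± 0.15 (edgeR adjusted p = 0.537), and the 95% intervals of both genes included 0 (-0.51 to 0.23 for Hspa1a and -0.14 to 0.50 for Hspa1b).

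Both HSP70 copies are hard to separate by reads. Of the 100-base windows of their GENCODE transcripts, 47.1% of Hspa1a and 49.9% of Hspa1b occur in the other, and the counting left out reads that map to several places. Hspa1b nevertheless had more CPM than Hspa1a in 24 of 24 libraries, from 3.83 to 9.45 times with a median of 5.45. With the reads of both summed, the log2 change was 0.13 ± 0.16 (edgeR adjusted p = 0.665).

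Hspa8 (chromosome 9, 40712572 to 40716498), which folds new proteins without stress, ran from 1155 through 1426 to 2371 CPM in KO and from 1089 through 1419 to 1748 in WT. Only KO 12 lay above the WT range, and the 2 medians nearly coincided. The log2 change was 0.04 ± 0.11 (edgeR adjusted p = 0.865). Copies of Hspa8 elsewhere in the genome held few counted reads. The 11 copies found by sequence in the count files had 0.707% of the reads of gene and copies together, and those of Hspd1 and Hsp90aa1 had 0.460% and 0.305%. Reads that fit both a gene and its copy were left out of the counts, so these shares do not show how many reads each gene lost.

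The next 3 members steer HSP70. Dnajb1, an HSP40 that hands clients to HSP70 and starts its ATP cycle, ran from 50.3 through 62.3 to 119 CPM in KO and from 51.3 through 62.0 to 82.4 in WT. The medians were alike and KO 12 alone lay above the WT range. Hsph1, the HSP110 that exchanges nucleotide on HSP70, ran from 46.7 through 88.5 to 125 CPM in KO and from 56.2 through 94.99 to 169 in WT. WT 18 was the highest of all, and KO 1, KO 3 and KO 4 were the lowest of KO. Bag3, a nucleotide exchange factor that links HSP70 to small heat shock proteins and to autophagy, ran from 38.4 through 57.4 to 74.5 CPM in KO and from 40.7 through 54.9 to 69.0 in WT, with KO 8 lowest and KO 12 highest. The log2 changes were 0.03 ± 0.12 for Dnajb1, -0.18 ± 0.18 for Hsph1 and 0.04 ± 0.10 for Bag3, with edgeR adjusted p-values of 0.920, 0.598 and 0.870.

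Hsp90aa1 (chromosome 12, 110657470 to 110662829), the inducible HSP90 that matures kinases and steroid receptors, ran from 288 through 478 to 551 CPM in KO and from 299 through 412 to 553 in WT. The ranges had nearly the same ends, and 9 of 12 KO libraries lay above the WT median. Its log2 change was 0.08 ± 0.12 (edgeR adjusted p = 0.731). From lowest to highest tumour it varied 1.92-fold.

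Hspd1 and Hspe1, HSP60 and HSP10, form the folding chamber of the mitochondrial matrix and its lid. Their genes overlap by 96 bases on opposite strands (Hspd1 on chromosome 1, 55116992 to 55127402, and Hspe1 from 55127307 to 55130476), and the counting recorded no strand. Hspd1 ran from 239 through 299 to 559 CPM in KO and from 192 through 275 to 375 in WT. It had the smallest adjusted p of the set, with means of 328 ± 85.2 against 283 ± 59.9 CPM (SD, n = 12 each), a log2 change of 0.21 ± 0.13 (95% interval -0.06 to 0.48) and an edgeR adjusted p of 0.368. Hspe1 ran from 56.2 through 70.9 to 232 CPM in KO and from 55.1 through 64.6 to 92.7 in WT. All KO libraries but KO 12 fell within the WT range. Its log2 change of 0.30 ± 0.18 (interval -0.08 to 0.68, edgeR adjusted p = 0.374) was the largest of the 10 and was 0.04 without KO 12, where the KO mean was 70.5 ± 9.32 CPM (n = 11).

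Hspb1 (chromosome 5, 135916773 to 135918417), the small heat shock protein HSP27 (HSP25 in the mouse), holds unfolded clients without ATP and binds actin. It ran from 78.5 through 92.4 to 239.7 CPM in KO and from 73.3 through 89.2 to 139.5 in WT. KO 12 lay far above the rest and the other 11 KO libraries lay within the WT range. The log2 change of 0.13 ± 0.16 (edgeR adjusted p = 0.673) became -0.06 without KO 12. Dnajb1 (-0.09), Hspa8 (-0.05) and Bag3 (-0.01) also turned below 0 without that library, Hspd1 stood at 0.11, and no member passed the threshold.

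**Figure D2:**
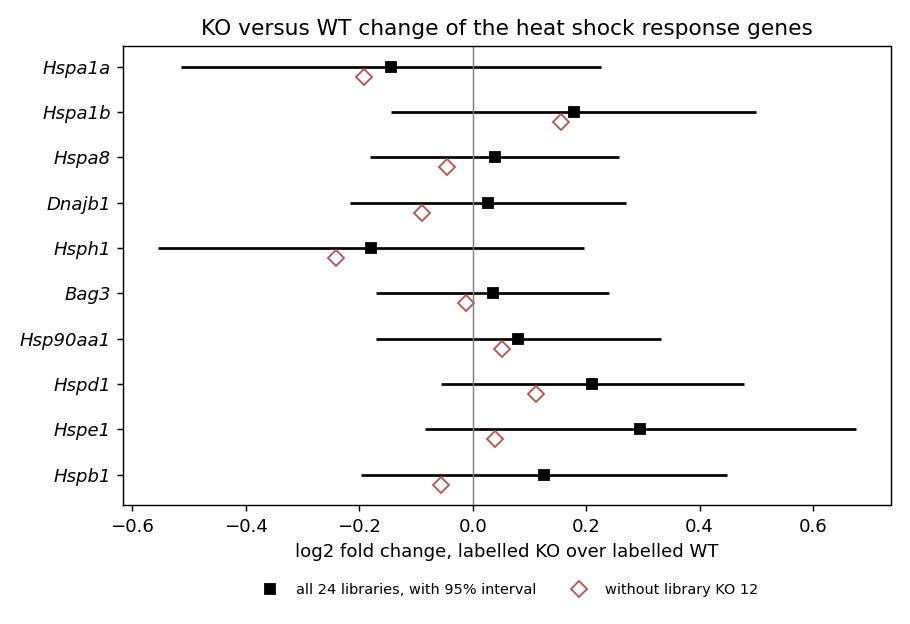
Log2 change of each gene, labelled KO over labelled WT (x axis), over all 24 libraries with its 95% interval (black) and without library KO 12 (red diamonds). Each interval spans 0, and all 10 diamonds lie to the left of their squares, with Hspe1 moving from 0.30 to 0.04.

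The authors' deposited table lists all 10 genes for the same comparison. Its adjusted p-values ran from 0.381 for Hspd1 to 0.944 for Dnajb1, and its log2 changes had the signs given above for each gene.

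Tumours of the same label differed from each other. Between the lowest and the highest of 24 tumours, Hsp90aa1 varied 1.92-fold, Hspa1a 3.64-fold and Hsph1 3.61-fold, each with or without KO 12. The range of Hspe1 was 4.21-fold with KO 12 and 1.68-fold without it, that of Hspb1 3.27-fold and 1.90-fold, and that of Hspa8 2.18-fold and 1.61-fold. Within groups, the SD on the log2 scale ran from 0.24 for Hspa8 to 0.47 for Hsph1, beside a median of 0.34 over all genes tested. The HSP70 pair (0.45 for Hspa1a and 0.40 for Hspa1b) was also above that median. So were Hspe1 (0.42) and Hspb1 (0.37), whose SD was 0.53 and 0.44 in KO, which holds KO 12, and 0.26 and 0.28 in WT. Bag3 (0.25), Dnajb1 (0.28), Hsp90aa1 (0.31) and Hspd1 (0.32) were below it.

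Some tumours were high or low for nearly the whole set. KO 12 lay above its group mean for 10 of 10 genes, from 0.25 for Hspa1b to 1.26 for Hspb1 and 1.58 for Hspe1 on the log2 scale. The last 2 are the shortest members, with 903 and 768 exonic bases, and short genes as a class were high in this library. Of the longer members, Dnajb1 (3227 bases) was at 0.90, Hspd1 (2588) at 0.81, Hspa8 (2104) at 0.70 and Hsph1 (6413) at 0.58. The others were at 0.25 to 0.49. KO 12 also had the highest luminal marker sum of KO (9893 CPM) and the lowest level of the leukocyte gene Ptprc of all 24 libraries (13.3 CPM). Other markers differed: leukocyte genes Cd52, Laptm5 and Coro1a were lowest of KO in KO 2, KO 1 and KO 2. Luminal genes Krt8, Krt18, Cldn3 and Cldn4 were highest of KO in KO 12, but Krt19, Epcam, Cdh1 and Elf5 in KO 2, KO 9, KO 6 and KO 7. The part of these features in its heat shock values was not tested.

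KO 9 showed another pattern, above its group mean for 9 of 10 genes. There Hspa1a stood at 1.04, Hspa1b at 0.71 and Hsph1 at 0.62 above the mean, while Hspe1 was at -0.30. That mean holds the high Hspe1 value of KO 12. In CPM, Hspe1 was 62.6 in KO 9, beside a KO mean of 70.5 ± 9.32 without KO 12 (n = 11). In KO 9 genes under 1000 exonic bases, the class of Hspe1 and Hspb1, had the lowest median of the 24 (-0.26). Hspb1 was at 0.12 there, and the part of this class in either value was not tested. WT 23 was above for 9 of 10, led by Hspe1 (0.46), Hspd1 (0.44) and Hsp90aa1 (0.44). KO 3 and WT 14 were below their group means for all 10, with Hsph1 at -0.80 in KO 3 and Hspa1a at -0.85 in WT 14. In KO 8, Hspa1a (-0.81), Hspa1b (-0.72) and Bag3 (-0.52) were low while Hsp90aa1 was at 0.14.

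**Figure D3:**
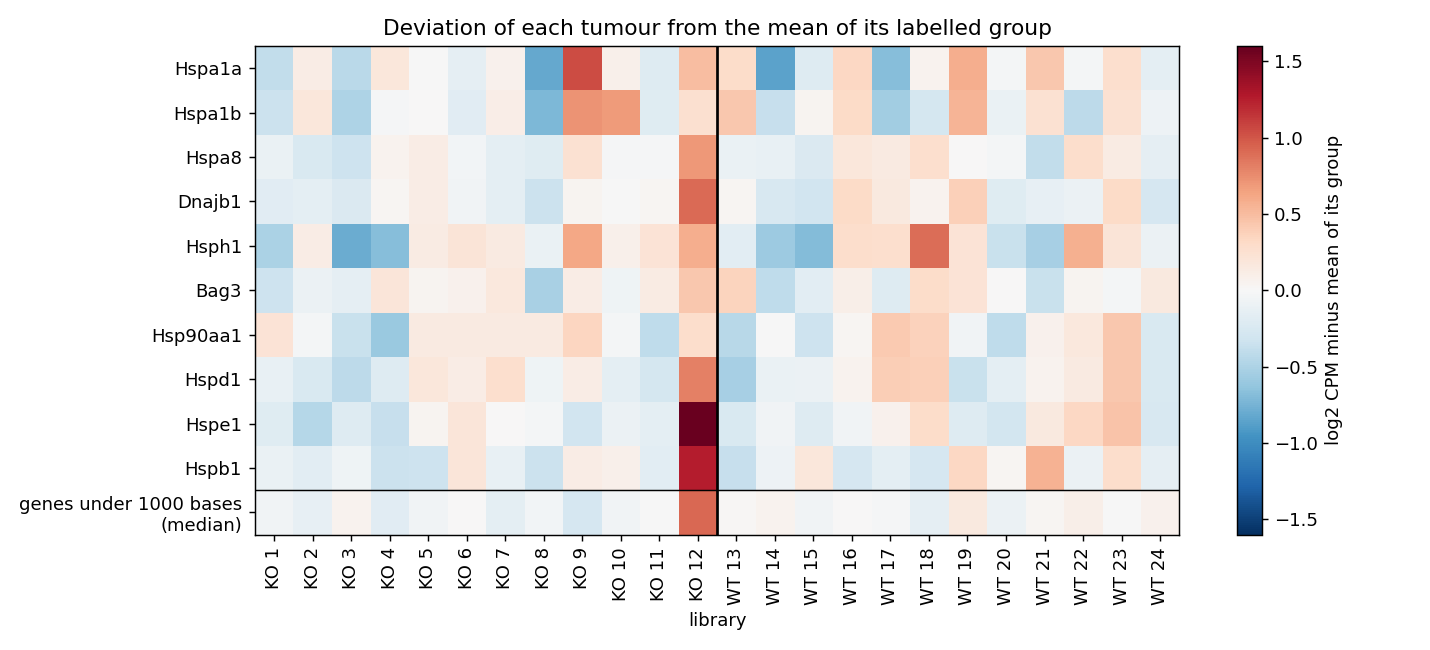
Deviation of each library (columns) from its group mean on the log2 CPM scale (colour) for the 10 genes (rows), with the median of genes under 1000 exonic bases in the last row. Library KO 12 is above the mean in every row, and KO 9 is high for Hspa1a, Hspa1b and Hsph1 but not for Hspe1.

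Co-variation among members was measured over the 24 tumours with group means subtracted. Of 45 pairs, 41 had a positive Pearson r (median 0.45), and 20 passed a two-sided permutation test (100000 resamples, Benjamini-Hochberg over the 45), all 20 positive. Without KO 12 the median was 0.34 and 9 pairs passed, each of them among the 20. Within groups, 31 of 45 were positive in both KO and WT. By Spearman rho 14 pairs passed, all positive. The share of pairs passing among all genes tested was not measured, so these counts do not set the members apart from other genes.

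The 9 pairs that passed without KO 12 were mostly among the HSP70 machinery or between Hsp90aa1 and the mitochondrial chaperonin. Hspa1a and Hspa1b had the highest r, 0.85 (rho 0.87, adjusted permutation p = 0.00015, from a raw p of 1e-05 that is the smallest the resamples can give), 0.84 without the 2 farthest libraries and 0.85 without KO 12. Bag3 followed Hspa1a (r = 0.63, rho 0.57, adjusted permutation p = 0.00849, 0.61 without 2 and 0.60 without KO 12). Dnajb1 followed Hspa8 (r = 0.79, rho 0.78, adjusted permutation p = 0.0009, 0.68 without 2 and 0.62 without KO 12) and Hspa1a (r = 0.54, rho 0.64, adjusted permutation p = 0.0364, 0.59 and 0.53). Hsph1 followed Hspa8 (r = 0.72, rho 0.78, adjusted permutation p = 0.0009, 0.67 and 0.74). Within KO and within WT, r was 0.87 and 0.83 for Hspa1a with Hspa1b and 0.72 and 0.53 for Hspa1a with Bag3. It was 0.94 and 0.54 for Dnajb1 with Hspa8, 0.56 and 0.51 for Dnajb1 with Hspa1a, and 0.60 and 0.89 for Hsph1 with Hspa8. The genes of these pairs belong to the HSP70 cycle, but the other pairs among them did not pass without KO 12. Dnajb1 with Hsph1 and with Bag3, and Bag3 with Hspa8 and with Hsph1, passed over all 24 libraries only. With Hspa8, Hspa1a had r = 0.37 (0.65 within KO, -0.03 within WT) and Hspa1b 0.17 (0.49 and -0.33). Hspa1b with Hsph1 had 0.22 (0.59 and -0.18). The share of the Hspa1a and Hspa1b relation that comes from their shared sequence was not tested.

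Hspe1 and Hspd1, the lid and the chamber, had r = 0.81 (rho 0.79, adjusted permutation p = 0.00015, 0.70 without 2 and 0.75 without KO 12). It was 0.85 within KO and 0.83 within WT. Hsp90aa1 went with Hspd1 (r = 0.77, rho 0.87, adjusted permutation p = 0.00015, 0.76 and 0.82), with Hspe1 (0.52, rho 0.70, adjusted permutation p = 0.0232, 0.48 and 0.67) and with Hsph1 (0.62, rho 0.61, adjusted permutation p = 0.00849, 0.55 and 0.60). Within KO and within WT, its r was 0.66 and 0.89 with Hspd1, 0.40 and 0.87 with Hspe1, and 0.61 and 0.63 with Hsph1. The lowest values were those of Hspa1b and Bag3 with this second set. Hspa1b had r = -0.04 with Hspd1, -0.03 with Hsp90aa1 and -0.02 with Hspe1, and Bag3 had -0.13 with Hsp90aa1, none past the permutation test. Their adjusted p-values were 0.913, 0.917, 0.944 and 0.596.

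Several further pairs rested on KO 12. Hspb1 with Hspe1 had r = 0.71 (rho 0.27, adjusted permutation p = 0.0452, 0.11 without the 2 farthest) and 0.17 without KO 12, Dnajb1 with Hspe1 went from 0.69 to 0.23, and Hspa8 with Hspe1 from 0.68 to 0.34. Without KO 12 no pair with Hspb1 passed, and its r with Hspa8 was -0.30.

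**Figure D4:**
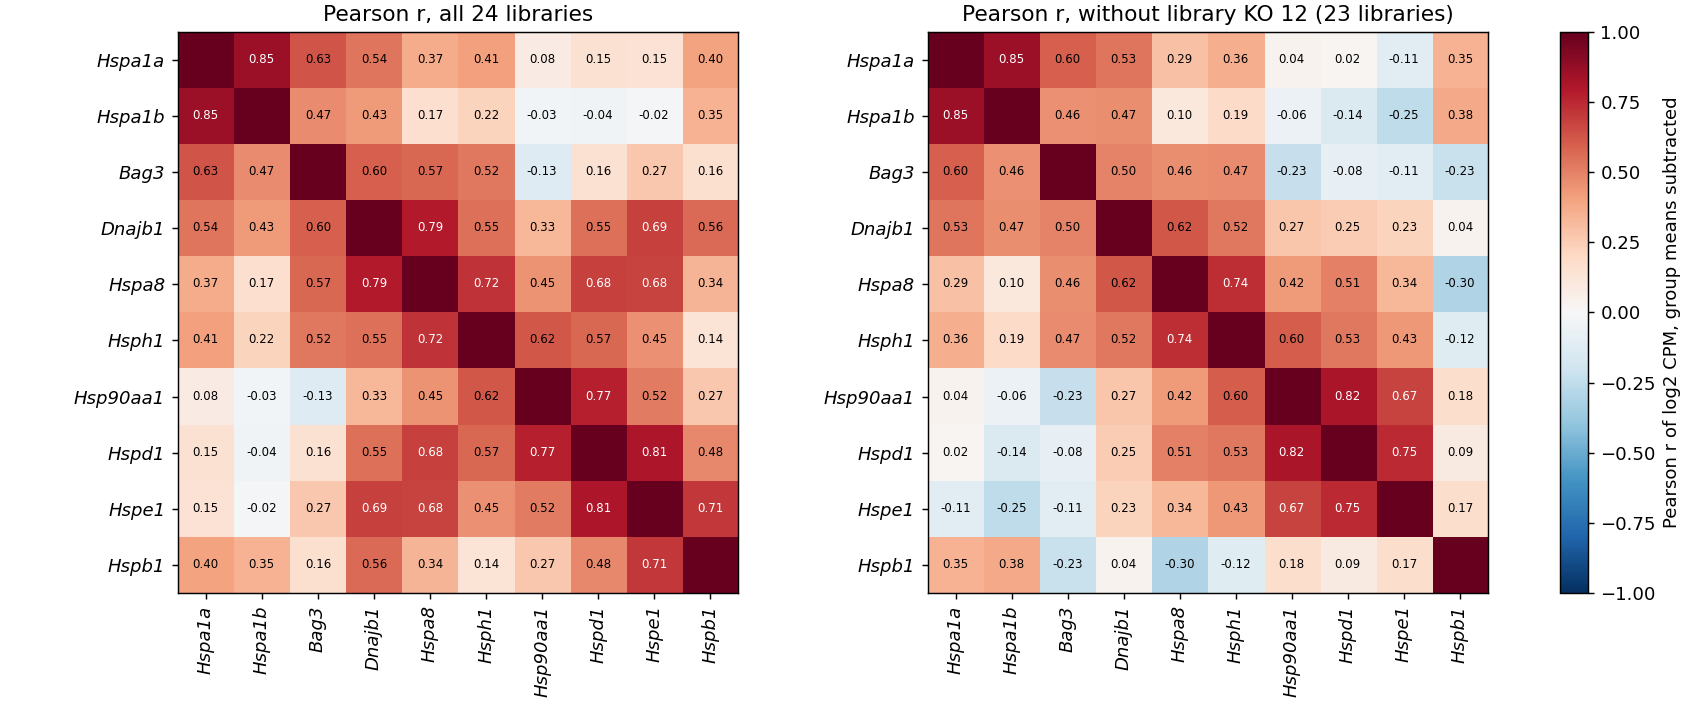
Pearson r between every pair of the 10 genes (colour and number) over all 24 libraries (left) and without library KO 12 (right), from log2 CPM with group means subtracted. Hspa1a with Hspa1b and Hspe1 with Hspd1 keep r of 0.85 and 0.75 on the right, while Hspb1 with Hspe1 goes from 0.71 to 0.17.

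Hsf1, the activator of the response, ran from 27.9 through 31.8 to 49.1 CPM in KO and from 28.8 through 33.6 to 44.5 in WT, with a log2 change of -0.06 ± 0.09 (edgeR adjusted p = 0.715). Its r with the members was positive for all 10, from 0.22 to 0.73. It passed the permutation test, adjusted over 70 relations of the members with 7 partner genes, for Hspe1 (0.73), Hspa8 (0.63), Hspd1 (0.61) and Hsph1 (0.58), with adjusted p-values of 0.0374, 0.0440, 0.0440 and 0.0440 and rho of 0.33, 0.40, 0.35 and 0.47. Without the 2 farthest libraries these r were 0.32, 0.39, 0.26 and 0.57. Without KO 12, where Hsf1 was highest, they were 0.48, 0.38, 0.40 and 0.54 and none passed.

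Hsp90aa1 was higher in tumours with more of the proliferation gene Mki67 (r = 0.66, rho 0.62, adjusted permutation p = 0.0284, 0.60 without 2 and 0.69 without KO 12) and lower in those with more Ptprc (r = -0.62, rho -0.66, adjusted permutation p = 0.0284, -0.65 and -0.63). By Spearman rho the relation with Ptprc passed (adjusted permutation p = 0.0469) and that with Mki67 did not (0.075). Within KO and within WT, its r was 0.51 and 0.76 with Mki67, and -0.59 and -0.74 with Ptprc. Hspd1 had r = -0.63 with Ptprc (rho -0.48, adjusted permutation p = 0.0374, -0.35 and -0.45) and did not pass without KO 12 (adjusted permutation p = 0.282). Its r with Mki67 went from 0.53 (adjusted permutation p = 0.0545, rho 0.55, 0.66 without 2) to 0.69 without KO 12, where it passed (0.0213). The count of relations past the threshold, 7 of 70, was unsteady: it was 0 without WT 18 or without WT 23, 11 without WT 19 and 3 without KO 12. None of the relations with Fos, an immediate early gene, Hspa5, the endoplasmic reticulum HSP70, Krt8, a luminal keratin, or Acta1, a skeletal muscle actin, passed.

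The genes most like each member across all genes tested, by the same r over 24 tumours and with no test. Apart from each other, Hspa1a was nearest Hs3st1 (0.78) and Sox10 (0.74), and Hspa1b nearest St7l (0.78) and Ndfip1 (0.77). Hsp90aa1 was nearest the chromatin remodeller Smarca5 (0.91), Hnrnpu (0.89) and Cse1l (0.87), at 0.91, 0.89 and 0.88 without KO 12. Hspd1 was nearest Ddit4 (0.93), Hnrnpm (0.93) and the RNA helicase Ddx18 (0.93), and Hspe1 nearest the small spliceosome genes Snrpe (0.97), Snrpg (0.96) and Lsm3 (0.96), at 0.88, 0.85 and 0.88 without KO 12.

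Hsph1 was nearest Sass6 (0.81), Luc7l (0.80) and the HSP40 gene Dnaja1 (0.80), and Hspa8 nearest Acin1 (0.87), Ubtf (0.82) and again Luc7l (0.82). Bag3 had Cbx6 (0.78), Slc66a1 (0.77) and Plbd2 (0.76). For Dnajb1 (Cnih4 0.86, Phf23 0.85, Mapkapk5 0.85) and Hspb1 (Atf4 0.87, Aup1 0.87, Ap1s1 0.86) the values without KO 12 lay between 0.64 and 0.73.

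Around the members, 113 genes of 11 wider lists gave the rest of the chaperone system, of which 109 were tested. None passed the threshold in either direction (edgeR), 18 were higher and 1 lower in KO at an unadjusted p under 0.05, and their median log2 change was 0.08. At that p, 1584 of all 15820 genes tested were higher and 1408 lower, 18.9% together. Of the 18, Hsbp1, Hspa9, Dnajb6, Hspb8, Bag1, Htra2, Hmox1, Mt1, Mt2, Jund and Ier2 were highest of KO in KO 12. The rest were highest in other libraries, and the medians of the wider lists were not computed without KO 12. The other HSP70 and HSP110 genes (0 of 9, median 0.06), other HSP40 genes (0 of 15, 0.07), HSP90 genes and cochaperones (0 of 14, 0.06), heat shock factors and regulators (0 of 6, 0.06), BAG and exchange factors (0 of 9, 0.09), TRiC chaperonin subunits (0 of 8, 0.09) and mitochondrial proteases (0 of 7, 0.08) had medians close to the members' own. Endoplasmic reticulum chaperones, the class of the unfolded protein response, had 0 of 12 and a median of 0.00. Other stress genes of the heat shock response had 0 of 9 and a median of 0.11. Among them was Serpinh1, the 1 gene lower in KO at an unadjusted p under 0.05 (log2 change -0.41 ± 0.17, edgeR adjusted p = 0.209). Higher medians were those of the other small heat shock proteins (0 of 6, 0.45) and of immediate early genes (0 of 14, 0.43).

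Hspb8, the small heat shock protein that works with Bag3, came nearest to a call. It ran from 52.4 through 75.8 to 255 CPM in KO and from 28.2 through 51.9 to 68.3 in WT. All 12 KO libraries lay above the WT median, though the ranges overlapped. Its log2 change was 0.93 ± 0.22 (edgeR adjusted p = 0.0622), or 0.69 without KO 12 (adjusted p = 0.0548), and it passed with DESeq2 (adjusted p = 0.00606) and in edgeR without KO 8 (adjusted p = 0.0496). Dnajb6 averaged 42.7 ± 5.44 against 36.1 ± 3.76 CPM (SD, n = 12 each), a log2 change of 0.24 ± 0.07 (edgeR adjusted p = 0.115, DESeq2 adjusted p = 0.0481).

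Mitochondrial HSP70, Hspa9, which passes proteins to the Hspd1 and Hspe1 chamber, averaged 443 ± 119.8 against 366 ± 40.4 CPM, with a log2 change of 0.28 ± 0.11 and an edgeR adjusted p of 0.193, and 0.16 without KO 12. The constitutive HSP90 gene Hsp90ab1 averaged 2329.9 ± 400.4 against 2476 ± 416 CPM (log2 change -0.09 ± 0.10, edgeR adjusted p = 0.647). Mt1, a metallothionein gene induced by metals and stress, ran from 64.2 through 76.5 to 1053 CPM in KO and from 34.4 through 74.4 to 116 in WT. Its log2 change of 1.22 ± 0.42 (edgeR adjusted p = 0.152) went to 0.31 without KO 12, the library with the highest value.

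**Figure D5:**
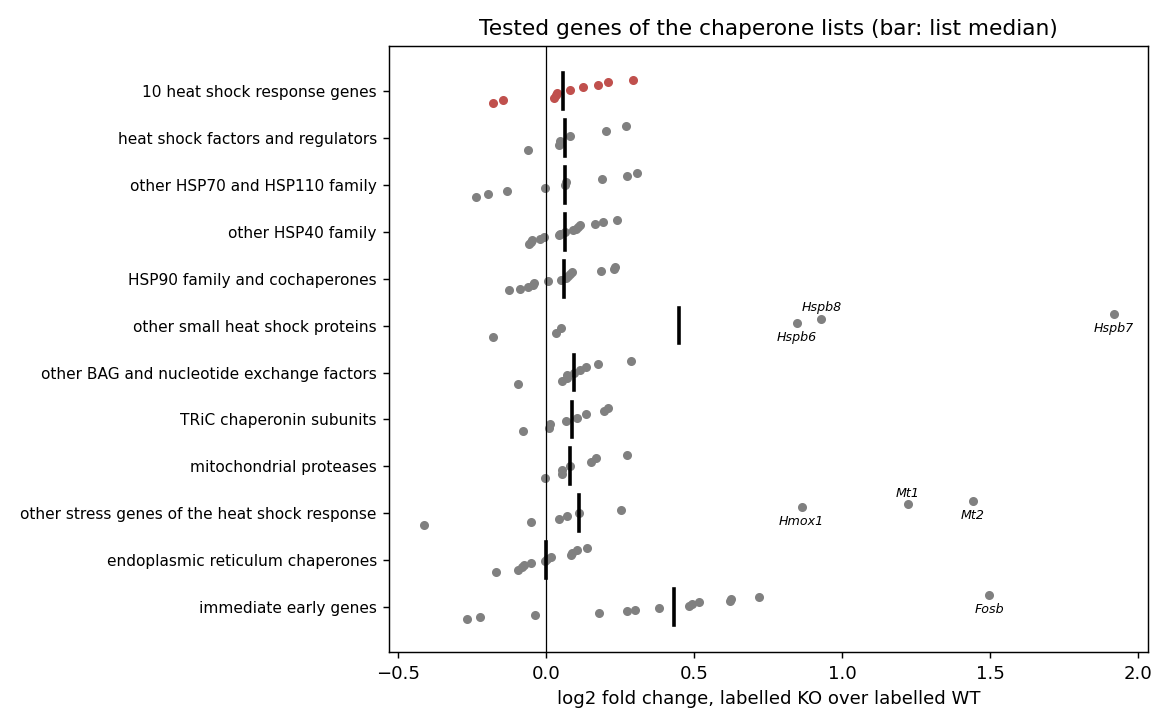
Log2 change, labelled KO over labelled WT (x axis), of every tested gene of the 10 heat shock response genes (red) and of the 11 wider lists (grey), with each list's median as a bar; genes farthest to the right are named. The 10 genes sit around their median of 0.06 (-0.03 without library KO 12), and the widest scatter is among small heat shock proteins, other stress genes and immediate early genes.

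The small heat shock genes Hspb6 and Hspb7, singled out after their values were seen, were both highest in KO 11, at 82.7 and 22.97 CPM. That library also had the highest skeletal muscle marker sum of all. The sum of these 8 markers ran from 1.20 through 213 to 6079 CPM in KO and from 1.55 through 51.3 to 575 in WT, and 3 of the 8 had reads in all 24 libraries. The part of muscle tissue in these values was not tested. Among the 10 members, adding muscle and adipocyte scores to the fit left 0 called, with the lowest adjusted p at 0.138 for Hspd1 (log2 change 0.29).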

How the data were processed

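The deposited count files hold whole-number reads per gene and library, made with featureCounts 2.0.0 on GRCm39 per the file headers, with no strand option and without multi-mapping reads. STAR and Subread stand in the submitters' processing notes, with versions not given in the sources used here. A table the authors deposited for KO versus WT holds p-values, an F score, a signed fold and log2 values of the change and of mean CPM.

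Counts that passed filterByExpr were TMM-scaled and compared by the quasi-likelihood test of edgeR 4.0.16 (R 4.3.3). DESeq2 1.42.0, limma 3.58.1 voom, other scalings, filters, covariates, added copies and leaving out libraries were alternatives. Correlations used log2 CPM (prior count 2) and permutations within groups in numpy 2.4.6. No batch is labelled. No pair of libraries within a group (132) agreed within sampling noise. Copies of members were sought by blastn 2.17.0 (90% identity or more, at least 300 bases) in GENCODE transcripts. Promoters are RefSeq windows of GRCm38.p6, whose coordinates are not those of the counts. The fitting and correlation steps were tested on simulated data.

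Members and lists were chosen with earlier results of these data known. Named genes were the members, Nr0b2, 7 partners, calls of the wider lists, the most abundant gene and that with the smallest p of each such list, shown in part, and the 3 genes most like each member. Single cell type markers and further genes of the wider lists at an unadjusted p under 0.05 were named after their values were seen.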

Additional observations from a re-analysis of the deposited data

How the results depend on the processing

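The count of 0 members called held under every one of 36 settings run. The wider lists, with 0 calls, had 1 at an adjusted p under 0.1, 2 with DESeq2 (Hspb8 and Dnajb6) and 0 to 1 with each library left out (1 without KO 8). The all-gene count of 50 was 418 with DESeq2, 111 with muscle and adipocyte covariates, 31 without KO 11 and KO 12, and 9 to 72 with each library left out. With limma voom the log2 change was -0.034 for Dnajb1, -0.034 for Hspb1, -0.017 for Hspa8 and -0.033 for Bag3, and without KO 11 and KO 12 it was -0.10, -0.049, -0.048 and -0.028. With each library left out it ran from -0.089 to 0.065, -0.056 to 0.18, -0.046 to 0.068 and -0.012 to 0.073. Correlated member pairs, 20 in all, were 4 within KO, 5 within WT, 10 without KO 11 and KO 12 and 9 (without KO 12) to 24 (without WT 21) with each library left out; each group has fewer libraries. Relations with partner genes, 7 in all, were 1 by Spearman rho, 1 within KO, 0 within WT, 2 without KO 11 and KO 12 and 0 to 11 with each library left out. Leaving out KO 1, 3, 4, 7, 9 or 12 or WT 14, 18, 19, 20, 22 or 23 moved that count by over 1.5 times. Apart from the fewer libraries, the cause was not tested. No paired analysis was possible because the KO and WT numbers share none. The alternatives without KO 11 and KO 12 and with copies found by sequence were chosen after seeing the data. Each member had at least 13204 reads over the 24 libraries.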
